A study of Mus musculus with 12 samples.

Results

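The genes described here are 45 mouse genes of fatty acid and sterol metabolism, out of 21887 protein-coding genes in the RefSeq annotation. Their open chromatin was measured by ATAC-seq, in which the Tn5 transposase cuts accessible DNA and the cut fragments are sequenced. The members are peaks called within 2 kb of a start of these genes and regions that the authors' comparison tables annotate to them. These make 86 regions on the mm10 build, 46 at gene starts and 40 found through the tables alone. The start regions were chosen by position and were tested. The table regions had been chosen by the authors' tests on the same libraries, so the comparison that listed them is given as a description. Their tests are read only in libraries outside a table that listed them. Counts of other comparisons that include them are printed, and nothing is read from those counts. Where a second table also listed a region, the test could include a group with a part in the choice.

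The cells were granulocyte-monocyte progenitors from the bone marrow of C57BL6 mice, carrying ER-HOXA9, in which the leukaemia-associated factor HOXA9 is joined to part of the estrogen receptor. All groups were grown with stem cell factor and with beta-estradiol, the ligand of the receptor part of the fusion. There are 12 libraries, 2 biological replicates for each of 6 conditions. Day0 cells were harvested untreated. Day 2 cells had received DMSO (Vehicle), the LSD1 inhibitor GSK-LSD1 at 200 nM (LSD1i), mercaptopurine at 5 uM (6MP), cerulenin at 5 uM (CER), or the 3 drugs together (Combo). The labels do not say whether the cells come from 1 immortalised line or from several mice.

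Cells make fatty acids by joining acetyl units on fatty acid synthase, the enzyme that cerulenin blocks, and make cholesterol through the mevalonate pathway. Both pathways are switched on by the SREBP transcription factors, which the sensor SCAP and the INSIG proteins hold back in the endoplasmic reticulum when sterols are plentiful. Excess sterol instead activates the LXR nuclear receptors, whose targets pump cholesterol out of the cell. LSD1 removes methyl groups from histone H3 at enhancers and promoters.

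The level reported is the summit signal, the log2 of the fragment pileup at the highest point of a peak over the background of its library, centred so that 0 is the median of the 33368 regions called in all 12 libraries. It is the height of 1 point, so the width of a region does not enter. Peak lists held 42651 to 56398 peaks per library. The median height of the shared regions was 28.3 to 42.7 times the background in 10 of the libraries. CER replicate 2 was lower, and the lowest, at 16.9 times, was 6MP replicate 1. These 2 libraries stand apart, and counts that rest on them are also given without them. Of 9 granulocyte-monocyte markers with an annotated start, 9 had a start peak in all 12 libraries. The starts of Cd3e and Cd3g (T cells), Pax5 (B cells), Alb (hepatocytes), Hba-a1 (erythroid cells), Plin1 (adipocytes) and Col1a2 (fibroblasts) had none. Gata1 (erythroid cells) had a start peak in 5 libraries. Klf1, Ebf1, Apoa1 and Adipoq, fixed as markers of erythroid cells, B cells, hepatocytes and adipocytes, had start peaks in all 12. An open start therefore did not separate these 4 cell types.

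The DNA before the starts of the sterol genes is shown first, because SREBP binds there together with the factors NF-Y and Sp1. Reference promoters from RefSeq (build GRCm38.p6, 250 bases before to 50 after each start) were found for 38 of the 45 genes, as 50 promoters. The 3 stretches below cover the 250 bases before the first listed start of Hmgcs1, the HMG-CoA synthase that opens the mevalonate pathway, of Fasn, the fatty acid synthase, and of Srebf2, which encodes the SREBP of cholesterol synthesis. Capitals mark the classical SREBP element (TCACNCCAC) and the NF-Y box (CCAAT), each on either strand. The 2 motifs do not overlap each other, and 1 run in Fasn reads as the NF-Y box on both strands.
Hmgcs1, chr13:119690101-119690350, plus strand: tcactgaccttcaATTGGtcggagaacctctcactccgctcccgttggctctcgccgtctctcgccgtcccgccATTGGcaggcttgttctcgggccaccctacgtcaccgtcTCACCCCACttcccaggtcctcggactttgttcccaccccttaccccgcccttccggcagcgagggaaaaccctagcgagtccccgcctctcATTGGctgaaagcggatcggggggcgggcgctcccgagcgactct
Fasn, chr11:120824548-120824797, minus strand: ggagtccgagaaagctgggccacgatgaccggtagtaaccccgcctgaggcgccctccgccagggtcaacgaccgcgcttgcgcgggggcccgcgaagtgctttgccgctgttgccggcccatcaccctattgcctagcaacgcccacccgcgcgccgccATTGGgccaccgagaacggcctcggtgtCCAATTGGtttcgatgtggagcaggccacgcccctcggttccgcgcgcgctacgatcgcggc
Srebf2, chr15:82147019-82147268, plus strand: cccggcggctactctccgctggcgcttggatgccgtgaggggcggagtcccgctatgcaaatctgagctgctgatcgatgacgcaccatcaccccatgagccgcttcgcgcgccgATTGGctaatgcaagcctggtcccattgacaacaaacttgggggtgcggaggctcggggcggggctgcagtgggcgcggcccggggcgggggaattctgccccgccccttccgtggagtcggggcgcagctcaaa

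The SREBP element lay 137 bases before the Hmgcs1 start, between 2 upstream NF-Y boxes and a proximal one. It was present in 2 of the 50 member promoters (4.0%), that of Hmgcs1 and a second start of Acsl1, against 1.19% of 21263 reference promoters. No region was called within 2 kb of that Acsl1 start. The NF-Y box was in 28 member promoters (56.0%) against 38.2% of all, and the GC box bound by Sp1 (GGGCGG, searched on both strands) in 33 (66.0%) against 46.2%. All 11 genes of cholesterol synthesis with a reference promoter held an NF-Y box upstream of a start, the nearest one between 14 and 136 bases away. The box 136 bases away is that of Pmvk, before a start 1486 bases from the nearest called region. The boxes nearest to the starts of Idi1, Mvk, Cyp51, Sc5d and Lss, with the box in capitals, show how close they sit.
Idi1, chr13:8885579-8885608, plus strand: ggtccaaggtgccATTGGctggcgaccgac
Mvk, chr5:114444242-114444271, plus strand: ctccagctctctgATTGGcctcaggaagac
Cyp51, chr5:4104710-4104739, minus strand: ccgctgtccgccaCCAATctggtcctgaga
Sc5d, chr9:42264308-42264337, minus strand: gcgccggctgctgATTGGccggctgcctgc
Lss, chr10:76531530-76531559, plus strand: tggtgatgctctgATTGGccgagctcgcat
The 3 LXR and efflux genes with a reference promoter (4 promoters) held no NF-Y box, and the LXR element was in 0 of the 50 member promoters and in 0 of all promoters. With 1 mismatch allowed it was in 0 of 50 and in 0.188% of all. A match is a description of the reference sequence, and no match says nothing of the factor.

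Most members had an open start in every library. Between 39 and 40 of the 45 had a called peak within 2 kb of a start in each library (86.7% to 88.9%), against 55.7% to 57.9% of 17492 genes with a reference promoter. The 45 include 7 without one, whose start was taken as the 5' end of the RefSeq gene. For 39 members at least 1 start region was present throughout the 12 libraries. Such regions numbered 43, with a median summit signal of 1.81, against 1.37 over 9136 start regions of all genes.

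**Figure D1:**
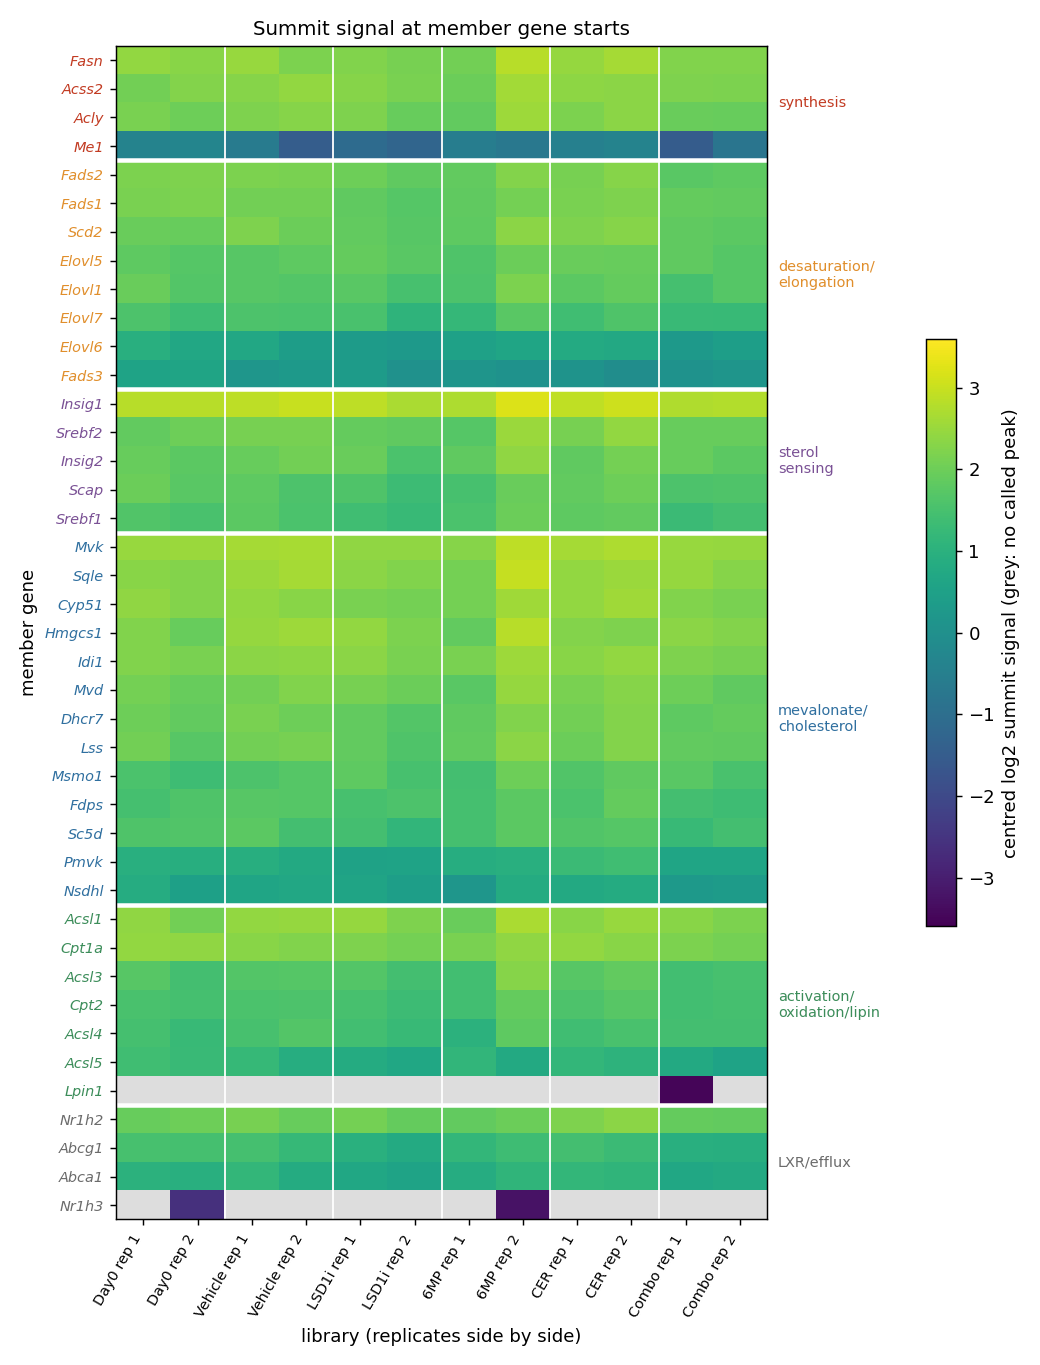
Centred log2 summit signal (colour) at the strongest start region of the 41 members that have one (rows, grouped and coloured by role) in the 12 libraries (columns). Grey cells have no called peak. Insig1 is the brightest row, Me1 stays below 0 in every library, and Lpin1 and Nr1h3 are nearly empty.

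The tallest start peak belonged to Insig1, which retains SREBP in the endoplasmic reticulum. Its mean signal over the 12 libraries was 2.88 ± 0.15 (SD, n = 12), with the lowest library at 2.70 and the highest at 3.22, and it stood at the 99.4th percentile of all start regions. Next came Mvk, the mevalonate kinase, at 2.55 ± 0.16, and Sqle, the squalene epoxidase that is a rate-limiting step of cholesterol synthesis, at 2.42 ± 0.22. Fasn followed at 2.35 ± 0.22 and Acsl1, which activates long-chain fatty acids by joining them to coenzyme A, at 2.33 ± 0.20, each an SD over n = 12 libraries. From Mvk down to Acss2 the means of neighbours in this order differed by less than their SDs. By role, the median level was 2.20 for the 4 start regions of fatty acid synthesis, 1.97 for the 15 of mevalonate and cholesterol synthesis, 1.78 for the 8 of desaturation and elongation, 1.72 for the 7 of sterol sensing, 1.60 for the 6 of fatty acid activation, oxidation and lipin, and 1.22 for the 3 of LXR and efflux.

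Low starts were found in several roles. Me1, the malic enzyme that supplies NADPH for fatty acid synthesis, had -0.79 ± 0.43 (SD, n = 12), the lowest level and the widest spread of the 43. Fads3, a fatty acid desaturase family member, had 0.21 ± 0.20, and Elovl6, which elongates palmitate, had 0.57 ± 0.22. In 2 members the start was called in few libraries. Nr1h3, which encodes LXR alpha, had a peak in 2 libraries, Day0 replicate 2 and 6MP replicate 2, at signals of -2.60 and -3.24, while Nr1h2, which encodes LXR beta, stood at 2.01 ± 0.15 in all 12. Lpin1, the lipin phosphatase that makes diacylglycerol, had a start peak in Combo replicate 1 only, at -3.51, although 5 other regions annotated to it were called. There were 4 members with no called peak within 2 kb of the RefSeq start, namely Scd1, Fdft1, Acaca and Acacb. Scd1 and Fdft1 have no reference promoter, so their start is the 5' end of the RefSeq gene. For Fdft1, Acaca and Acacb the authors' deposited table nevertheless annotates promoters of other transcripts, and those regions (14:63177548, 11:84179193 and 5:114174772) were called throughout, with lowest signals of 1.68, 1.95 and 1.90. For Scd1, the stearoyl-CoA desaturase, the nearest listed open region was intergenic (19:44387243) and had 1.55 to 2.04, while its paralogue Scd2 had an open start at 2.00 ± 0.21.

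The time in culture with DMSO was compared first. No member start region passed the test in Vehicle against Day0 (limma with Benjamini-Hochberg adjustment at 0.05), 0 of 43, with 2 at an unadjusted p under 0.05. Over all start regions 0 of 9425 passed (0%), and over all regions 32 of 39427 (0.0812%). The deposited table lists 1 member region, near Elovl5, which elongates polyunsaturated fatty acids. It lies at 9:77923690-77924355, annotated as a promoter region of an Elovl5 transcript, and its deposited log2 fold is 0.69 (FDR 0.0214). That table opens 1.8% of all 39858 regions it tested, a number recovered from its p-values, FDRs and ranks. The summit signal of the Elovl5 region was -0.76 and -1.06 in the Day0 replicates and -0.56 and -0.26 in the Vehicle replicates.

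This Elovl5 region also differed between drug groups that had no part in its choice. Its signal was -0.27 and -0.30 in LSD1i, -0.39 and -0.50 in Combo, -0.78 and -0.87 in 6MP, and -1.07 and -0.89 in CER. All 4 libraries with the LSD1 inhibitor were above all 4 with mercaptopurine or cerulenin alone. LSD1i exceeded the mean of 6MP and CER by 0.62 ± 0.16 (SE, adjusted p = 0.0093 by limma), in a comparison that opened 7.2% of all regions tested. The difference was 0.60 and 0.63 without LSD1i replicate 1 or 2 and 0.84 under scaling by depth, but the call was lost in each (adjusted p = 0.102, 0.108 and 0.231 by limma). With the deposited fold ratio as the signal it was 0.37 (adjusted p = 0.274). Combo exceeded 6MP and CER by 0.46 ± 0.16, which did not pass (adjusted p = 0.0672 by limma).

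The largest number of member regions was listed for the LSD1 inhibitor. The authors' deposited table of LSD1i against Vehicle lists 73 regions of 42 member genes, 69 closed (lower signal) and 4 opened. Over all genes that table closes 17729 regions and opens 3518 of the 51614 it tested. The number tested was recovered from its p-values, FDRs and ranks. Mvk, Nr1h3 and Nsdhl have no region under their own name there. Counting rows by position, whatever gene they are annotated to, 43 of the 45 member start regions called in at least 2 libraries were closed, with log2 folds from -0.88 to -0.25. The share is 95.6%, against 66.5% closed and 1.29% opened of the 10459 such start regions of all genes, and the median fold of the member starts was -0.50 against -0.43. The member starts were also taller than those of all genes (medians of 1.81 and 1.37), and the part of height in this count was not tested. In bulk chromatin, fewer cells of a type and less signal per cell cannot be told apart. The start regions not listed were those of Elovl5 and Nr1h3. There are 4 listed under the gene on the other side of a shared start, Ggt7 for Acss2, Nadsyn1 for 1 Dhcr7 start, Mmab for Mvk and Cetn2 for Nsdhl, so reads at these starts belong to either gene.

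The starts of every role were among the closed regions. In the authors' deposited table Insig1 had -0.45 (FDR 3.07e-17), Srebf2 -0.54, Scap -0.40, and the 3 starts of Srebf1, which encodes the SREBP of fatty acid synthesis, -0.66, -0.60 and -0.36. Among cholesterol synthesis genes, Hmgcs1 had -0.36, Sqle -0.51, Cyp51, the lanosterol demethylase, -0.54, and Lss, the lanosterol synthase, -0.60. Among the genes that build and shape fatty acids, Fasn had -0.39, Acly, which makes cytosolic acetyl-CoA from citrate, -0.50, Fads1 -0.49 and Scd2 -0.50. Acsl1 had -0.33 and Cpt1a, the gate of fatty acids into mitochondria, -0.38. Of the LXR targets that export cholesterol, Abcg1 had -0.75 and Abca1 -0.49.

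The larger folds of the deposited tables lay away from the starts. A promoter region of another transcript of Acss2, the acetyl-CoA synthetase, has -2.03 in the deposited LSD1i table and -1.21 in the deposited Combo table, and an exon of Acaca, the acetyl-CoA carboxylase, has -1.56 for LSD1i. The deposited folds for Combo are above 1 at 3 regions, an intron of Fads3 (1.54), an intron of Acsl3 (1.32), and a 5' UTR of Lpin1 (1.26). That table lists 11 member regions of 9 genes, 8 opened and 3 closed, none at a RefSeq start. Of the 8 opened, 5 belong to fatty acid activation, oxidation and lipin. Over all genes, 6813 regions are opened and 1142 closed in it, with median folds of 0.98 and -0.78. At start regions, 0 of 45 members were opened against 2.94% of all, and 0 closed against 0.535%. Both tables use the same Vehicle libraries. Both list 6 member regions, with the same sign: at Acsl3 (0.65 in LSD1i and 1.32 in Combo), Lpin1 (1.18 and 1.26, and 0.32 and 0.50), Acss2 (-2.03 and -1.21), Sc5d (-1.19 and -1.09) and Acaca (-0.87 and -1.08). They are 6 of 11 Combo regions and 6 of 73 LSD1i regions.

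**Figure D2:**
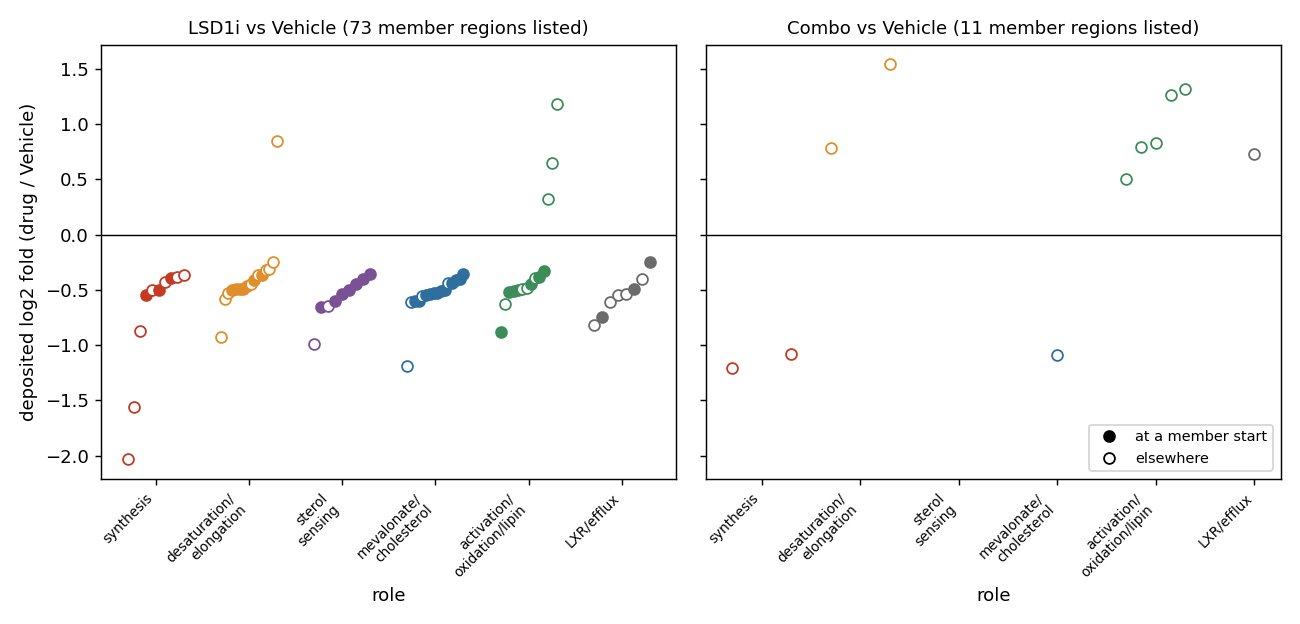
Deposited log2 folds of the member regions listed for LSD1i (left) and Combo (right) against Vehicle, 1 point per region, by role. Filled points lie at a member start and open points elsewhere. The 39 filled points annotated to members lie between -0.88 and -0.25 in the left panel, and the right panel has none.

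The summit signal gave smaller counts than the deposited tables. For LSD1i against Vehicle, 0 of 43 member start regions passed the test (limma, Benjamini-Hochberg at 0.05), with 4 at an unadjusted p under 0.05, against 2.76% of all start regions. The differences were below 0 at 41 of the 43, with a median of -0.20, and at 7712 of all 9507 start regions, with a median of -0.16. Centred by intensity, which removes a trend with signal height, 27 of the 43 were below 0 and the median was -0.06, and scaled by depth all 43 were below 0, with a median of -0.36. For Combo against Vehicle the count was again 0 of 43, with 5 at an unadjusted p under 0.05, against 2.65%. Here 42 of the 43 were below 0, with a median of -0.20, but scaled by depth only 17 were below 0 and the median was 0.02. For 6MP against Vehicle no region passed, 0 of 43 members with 1 at an unadjusted p under 0.05, and 0 of 37145 over all regions (0%). For CER against Vehicle 0 of 43 passed, with 2 at an unadjusted p under 0.05, against 0.139%. Here 34 of the 43 were above 0, with a median of 0.09 against 0.10 over all start regions, but scaled by depth the median was -0.20. With 2 libraries a group the errors are wide, and these counts do not show that the starts kept their level.

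Counted over start and table regions together, 3 of 76 member regions passed in LSD1i against Vehicle (limma, Benjamini-Hochberg at 0.05), where 6.05% of all regions did. In Combo against Vehicle it was 9 of 78 (8.07% of all), in CER against Vehicle 2 of 77 (0.328%), with the LSD1 inhibitor present against absent 22 of 74 (24.7%), and with cerulenin present against absent 4 of 75 (2.65%). The table regions were listed by the authors' tests of the same libraries, so nothing is read from these 5 counts.

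Setting all 4 libraries with the LSD1 inhibitor (LSD1i and Combo) against the 6 day 2 libraries without it (Vehicle, 6MP and CER) gave more precision. Of the 43 member start regions, 11 closed and 0 opened (limma, Benjamini-Hochberg at 0.05), with 19 at an unadjusted p under 0.05. Over all start regions 21.1% closed and 2.15% opened, so the members' share, 11 of 43, was near that of all genes. The median difference of the member starts was -0.22, against -0.17 over all start regions and -0.09 over all regions, but under scaling by depth it was 0.06 against 0.19 over all regions and 0 of the 43 closed. With centring by intensity 7 closed, against 10.6% of all start regions, and the median was -0.06.

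**Figure D3:**
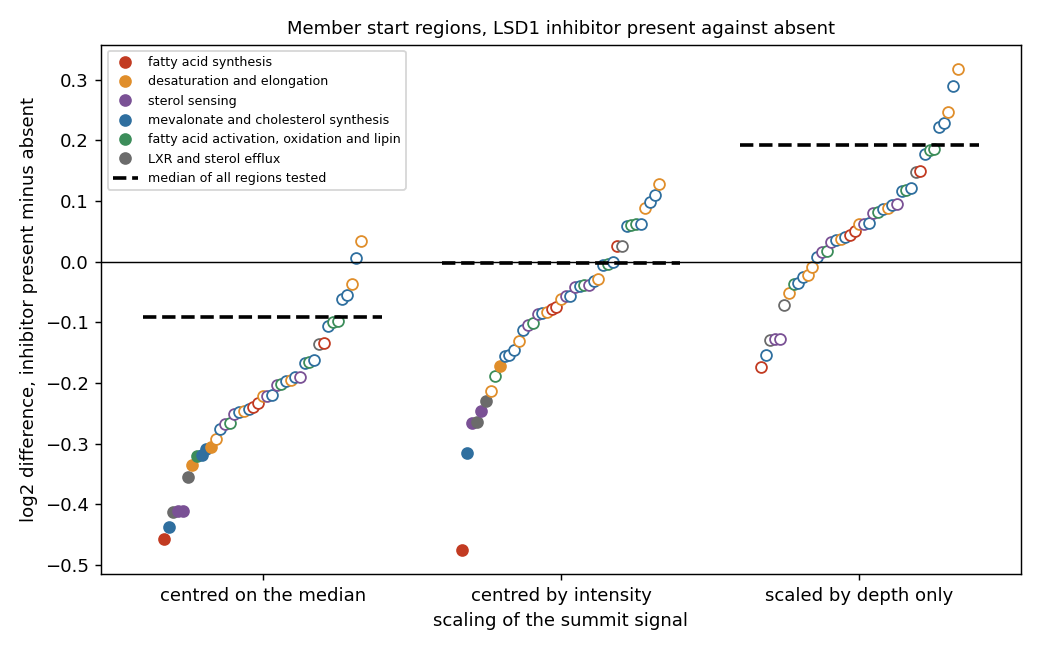
Log2 difference of the 43 member start regions (points, coloured by role, sorted) between libraries with and without the LSD1 inhibitor, under 3 scalings of the summit signal. Filled points have a limma adjusted p under 0.05 and the dashed line is the median of all regions tested. From left to right, the members' median is -0.22, -0.06 and 0.06.

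The closed starts included the SREBP gene of fatty acid synthesis and both cholesterol exporters. At the middle of the 3 Srebf1 starts (11:60219907-60221088) the libraries without the inhibitor ranged from 1.15 to 1.47, with a median of 1.31. Those with it had 0.99 and 0.81 (LSD1i) and 0.89 and 0.90 (Combo), all below the other 6. The difference was -0.41 ± 0.09 (SE, adjusted p = 0.0010 by limma), and the start at 11:60209420 had -0.41 ± 0.10 (adjusted p = 0.0034), while the third, at 11:60222327, did not pass. The Abcg1 start (17:31057427-31059130) ranged from 1.16 to 1.46 without the inhibitor and had 0.98, 0.81, 0.95 and 0.92 with it, again without overlap, a difference of -0.41 ± 0.09 (adjusted p = 0.0014 by limma). Abca1 (4:53158635-53160784) ranged from 0.82 to 1.17 without it and had 0.70, 0.57, 0.68 and 0.79 with it, also without overlap. The Abca1 difference was -0.35 ± 0.09 (adjusted p = 0.0055 by limma).

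The start with the smallest adjusted p was that of Pmvk, the phosphomevalonate kinase (3:89457874-89459646). It ranged from 0.78 to 1.39 without the inhibitor, and the highest libraries were the CER replicates, at 1.30 and 1.39. With the inhibitor it had 0.54, 0.59, 0.62 and 0.63, all below the other 6. The difference was -0.44 ± 0.09 (adjusted p = 0.00037 by limma). Starts separated in this way, all 4 libraries below all 6, numbered 5 of the 43 members and 8.19% of all start regions. The other closed starts overlapped between the groups: Me1 (-0.46 ± 0.15), Scd2 (-0.34 ± 0.11), Acsl5 (-0.32 ± 0.10), Sc5d, the lathosterol desaturase (-0.32 ± 0.10), Lss (-0.31 ± 0.12) and Elovl6 (-0.31 ± 0.09), with limma adjusted p from 0.015 to 0.049.

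These calls depended on a few libraries. Without 6MP replicate 1, the library with the lowest signal over background, 37 of the 43 member starts closed, against 59.6% of all start regions, and without both this library and CER replicate 2 the count was 34 (51.6% of all). It was 7 without CER replicate 2 (14.5% of all start regions), 6 without Combo replicate 1 (8.03%), 5 without LSD1i replicate 2 (7.5%) and 5 without Vehicle replicate 1 (12.8%). The 11 start regions stayed below 0 under scaling by depth, at -0.17 to -0.02, and none passed there. The libraries with the inhibitor had shared-region medians of 28.5 to 42.7 times background and the 6 without it 16.9 to 35.4 times, and the part of this difference in the result was not tested.

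Several starts named for their place in the pathway were not called with all libraries. Hmgcs1 had 1.88 to 2.83 in the 6 libraries without the inhibitor, with the lowest value in 6MP replicate 1 and the highest in 6MP replicate 2, and 2.19 to 2.42 in the 4 with it. Fasn had 2.06 to 2.81 and 2.13 to 2.23, Srebf2 1.70 to 2.51 and 1.85 to 1.94, Insig1 2.70 to 3.22 and 2.70 to 2.89, and Sqle 2.10 to 2.96 and 2.24 to 2.46. In each of these 5 the 6MP replicates were the lowest and the highest of the 6 libraries without the inhibitor. Without 6MP replicate 1 all 5 passed as closed. Hmgcs1 went from -0.06 to -0.22 (adjusted p = 0.023 by limma), Sqle from -0.19 to -0.33, Insig1 from -0.19 to -0.28, Fasn from -0.23 to -0.36 and Srebf2 from -0.27 to -0.40, the last 4 with adjusted p from 0.00024 to 0.0020. The starts of Acly, Acsl1, Cpt1a and Nr1h2 did not pass with all libraries either. Without 6MP replicate 1 Acly (-0.36), Acsl1 (-0.22) and Cpt1a (-0.21) closed, with limma adjusted p from 0.00070 to 0.026, and Nr1h2 did not pass (-0.15, adjusted p = 0.087).

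Other genes of these pathways were counted from a list of 40 genes. With the LSD1 inhibitor present against absent, 3 of 19 start regions of other sterol genes closed and 1 opened, and 4 of 21 of other fatty acid genes closed and 0 opened (limma, Benjamini-Hochberg at 0.05). Over all start regions 21.1% closed and 2.15% opened, so nothing particular to these genes is read from the counts. In LSD1i against Vehicle 0 of 19 and 2 of 21 closed, against 1.90% of all start regions. In Combo against Vehicle it was 0 of 19 and 1 of 21, against 1.51%. None opened in either, and none of them passed in Vehicle against Day0, 6MP or CER against Vehicle, or Combo against LSD1i, where 1, 3, 1 and 2 had an unadjusted p under 0.05. Over all start regions 0 of 9425, 0 of 9354, 13 of 9377 and 0 of 9624 passed there.

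The 33 regions away from starts that the deposited LSD1i table lists could be tested in libraries that this table did not use. The comparison was Combo against the mean of 6MP and CER. Of the 33, 6 are in the deposited Combo table too, so Combo had a part in their choice. Of the 33, 27 were called in all 6 libraries. The signal in Combo was lower at 25 of the 27, with a median of -0.26, but 22967 of all 35015 regions were lower too, with a median of -0.11. The direction depended on the scaling. Scaled by depth, 2 of the 27 were lower and the median was 0.34, against 0.49 over all regions, and centred by intensity 20 of the 27 were lower, with medians of -0.12 and -0.0030. Of the 27, 4 closed and 1 opened (limma, Benjamini-Hochberg at 0.05), in a comparison where 5.62% of all regions closed and 5.26% opened. The number closed was 13 without 6MP replicate 1, 1 without either Combo replicate and 0 scaled by depth, and with the deposited fold ratio as the signal none of the 27 passed.

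The opened region is an intron of Acsl3 (1:78701902-78703268), the gene of a long-chain acyl-CoA synthetase of lipid droplets. It had -1.69 and -1.66 in 6MP, -2.52 and -2.48 in CER and -0.74 and -1.02 in Combo, without overlap, a difference of 1.21 ± 0.26 (SE, adjusted p = 0.0021 by limma). The LSD1i replicates lay within -1.05 to -0.74 as well, and Vehicle had -2.66 and -1.64 and Day0 -1.69 and -2.28. All 4 libraries with the inhibitor were above the other 8, at 58 to 96 fragments against 15 to 45. The call held under scaling by depth and was lost without Combo replicate 1, with a difference of 1.07 (adjusted p = 0.0922). The deposited Combo table lists this region as opened too, so Combo and LSD1i both had a part in its choice. Neither of their differences from 6MP and CER is free of that choice. LSD1i exceeded 6MP and CER by 1.06 ± 0.26 (SE, adjusted p = 0.0047 by limma). Without LSD1i replicate 1 or 2 the size was 1.03 or 1.08 and the call was lost (adjusted p = 0.0746 and 0.0732).

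A region that closed lies at the promoter of another transcript of Acss2 (2:155567637-155568474). It had -1.21 and -1.15 in 6MP, -1.55 and -1.31 in CER and -2.28 and -2.90 in Combo, without overlap, a difference of -1.29 ± 0.26 (SE, adjusted p = 0.0012 by limma). There was no peak in LSD1i replicate 1 and -2.34 in LSD1i replicate 2, and the Vehicle and Day0 libraries had -1.73 to -0.69. The deposited Combo table lists this region as closed too, so Combo had a part in its choice. The call was lost without Combo replicate 2 (-0.98, adjusted p = 0.0818) and under scaling by depth (-0.69, adjusted p = 0.13).

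Another closed region is 2-3 kb before a start of Acacb, the mitochondrial acetyl-CoA carboxylase (5:114162018-114163086). It had -0.85 and -1.31 in 6MP, -1.16 and -0.95 in CER and -2.07 and -2.04 in Combo, so the groups did not overlap, and the difference was -0.99 ± 0.23 (SE, adjusted p = 0.0047 by limma). LSD1i itself had -1.61 and -1.71, close to Vehicle at -1.30 and -1.70. Without Combo replicate 1 or 2 the difference was -0.97 or -1.01 and the call was lost (adjusted p = 0.0771 and 0.054), as it was under scaling by depth, where the difference was -0.39 (adjusted p = 0.404).

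The other 2 closed regions are upstream of Abcg1, in intergenic DNA. The region at 17:31038289-31041030 had 0.83 and 1.27 in 6MP, 1.26 and 1.20 in CER and 0.65 and 0.63 in Combo, a difference of -0.50 ± 0.13 (SE, adjusted p = 0.010 by limma). Without Combo replicate 1 or 2 it was -0.51 or -0.49 and the call was lost (adjusted p = 0.11 and 0.114). The region at 17:31018186-31020195 had -0.75 and -0.92 in 6MP, -0.64 and -0.57 in CER and -1.06 and -1.45 in Combo, a difference of -0.53 ± 0.18 (adjusted p = 0.046 by limma). That call rested on single libraries. Without Combo replicate 2 the difference was -0.34 (adjusted p = 0.495), without Combo replicate 1 it was -0.73 (0.0789), without CER replicate 1 or 2 the adjusted p was 0.0758 and 0.102, and fitted on the libraries of the comparison only it was 0.059. In both regions, the Combo libraries were below all 4 others, as at the Abcg1 start (-0.38 ± 0.12, adjusted p = 0.042 by limma), but scaled by depth the differences were 0.06 to 0.21 at these 3 regions, with the sign turned. Over start regions, 5 of the 43 members closed in this comparison against 6.17% of all.

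Cerulenin, the inhibitor of fatty acid synthase, was the drug aimed at this pathway. The clearest member region was one at Acsl1 (8:46533676-46534573), annotated 2-3 kb from a start of another Acsl1 transcript and listed as opened in the deposited Combo table (0.83, FDR 0.00168). Its signal was -0.74 and -0.73 in Day0, -1.17 and -1.32 in Vehicle, -1.08 and -1.29 in LSD1i, -0.62 and -0.66 in 6MP, -0.22 and -0.14 in CER and -0.59 and -0.43 in Combo. The 2 CER libraries were the highest of all 12, and the 2 Combo libraries were above the other 8. The summits held 44 to 123 fragments.

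The 11 regions of the Combo table were set against libraries it did not use, and 5 of them were called throughout those. Of these 5, the Acsl3 intron and the Lpin1 region at 12:16630614 are in the deposited LSD1i table too. LSD1i therefore had a part in their choice. In CER against the mean of LSD1i and 6MP 1 opened and 1 closed, and in LSD1i against the mean of 6MP and CER 2 opened and 1 closed (limma, Benjamini-Hochberg at 0.05). At the Acsl1 region CER exceeded the mean of LSD1i and 6MP by 0.74 ± 0.16 (SE, adjusted p = 0.0051 by limma), in a comparison that opened 4.71% of all regions. The size was 0.75 under scaling by depth, 0.78 without CER replicate 1 and 0.69 without CER replicate 2, but the call was lost in each (adjusted p = 0.924, 0.0678 and 0.0742). With the deposited fold ratio it was 0.47 (adjusted p = 0.161). The difference of LSD1i from the mean of 6MP and CER was -0.78 ± 0.16 (adjusted p = 0.0014 by limma), in a comparison that closed 9.5% of all regions, and this call was lost without LSD1i replicate 2 (-0.67, adjusted p = 0.075), under scaling by depth (-0.56, adjusted p = 0.615) and with the deposited fold ratio (-0.45, adjusted p = 0.0722). Given as a description, since Vehicle had a part in the choice, CER against Vehicle was 1.07 ± 0.19 and 6MP against Vehicle 0.61 ± 0.19. Combo had a part in the choice too, and Combo against LSD1i was 0.67 ± 0.19, which did not pass (adjusted p = 0.14 by limma). The region that closed in CER against LSD1i and 6MP was the Acsl3 intron. There LSD1i had a part in the choice, and CER lay between the Vehicle replicates given above. The difference was -1.15 ± 0.26 (SE, adjusted p = 0.0051 by limma), in a comparison that closed 5.06% of all regions. This call was lost without CER replicate 1 (-1.13, adjusted p = 0.0828) and under scaling by depth (-1.13, adjusted p = 0.108). The second region opened in LSD1i was intergenic DNA at Lpin1 (12:16630614-16632139), with 0.94 and 0.95 in LSD1i, 0.46 and 0.76 in 6MP and 0.23 and 0.64 in CER (0.42 ± 0.13, adjusted p = 0.026 by limma). It was lost without LSD1i replicate 1 or 2 (0.43 and 0.41, adjusted p = 0.146 and 0.205), without CER replicate 1 (0.32, adjusted p = 0.133) and under scaling by depth (0.64, adjusted p = 0.607). With the deposited fold ratio its sign turned. The Acsl1 start did not pass with all libraries in any comparison, with 2.33 and 2.48 in CER, 2.43 and 2.46 in Vehicle and 2.31 and 2.19 in Combo.

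**Figure D4:**
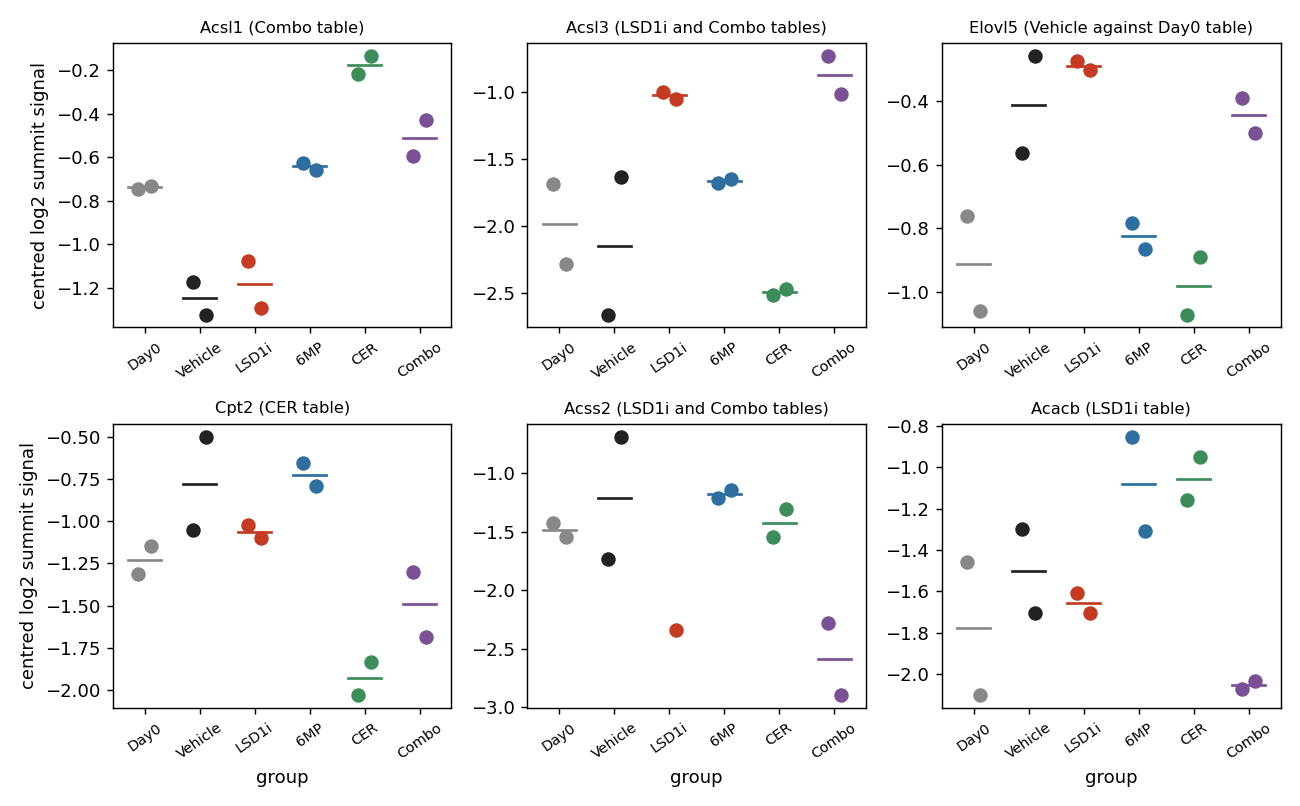
Centred log2 summit signal in each library (points) at 6 member regions away from RefSeq starts, by group, with the group mean as a line where both replicates had a called peak. The deposited table that listed each region is named above its panel. The CER points are highest at Acsl1 and lowest at Cpt2, and the LSD1i and Combo points are highest at Acsl3.

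The deposited CER table lists 1 member region, in a 3' UTR at Cpt2, the inner-membrane carnitine palmitoyltransferase of fatty acid oxidation (4:107904164-107904774), with a log2 fold of -1.16 (FDR 0.038). That table closes 0.358% of all 47174 regions it tested, again a number recovered from its p-values, FDRs and ranks. The Cpt2 region had -2.03 and -1.83 in CER, -1.30 and -1.69 in Combo, -1.06 and -0.50 in Vehicle, -1.03 and -1.10 in LSD1i, -0.65 and -0.79 in 6MP and -1.31 and -1.15 in Day0. The CER libraries were the lowest of the 12. In the libraries that did not choose it, the difference of Combo from LSD1i was -0.43 ± 0.23, which did not pass (adjusted p = 0.53 by limma). The Cpt2 start did not follow, with 1.59 and 1.73 in CER against 1.56 and 1.58 in Vehicle. Cerulenin present against absent sets CER and Combo against Vehicle and LSD1i. It is matched for the LSD1 inhibitor but not for mercaptopurine, which Combo also received. At starts it gave 0 calls of 43 (limma, Benjamini-Hochberg at 0.05), with 1 at an unadjusted p under 0.05, against 0.786% of all start regions. The Fasn start itself was 2.47 and 2.63 in CER against 2.49 and 2.18 in Vehicle. Against the mean of LSD1i and 6MP, 1 of the 43 member starts opened in CER, that of Pmvk (0.61 ± 0.12, adjusted p = 0.0013 by limma), against 8.88% of all start regions. Its CER libraries, at 1.30 and 1.39, were the highest of the 12.

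What the 2 metabolic inhibitors add to the LSD1 inhibitor was read from Combo against LSD1i. No member start region passed (limma, Benjamini-Hochberg at 0.05), 0 of 43, with 0 at an unadjusted p under 0.05, and 0 of 9624 over all start regions. With the table regions it was 0 of 77, with 2 at an unadjusted p under 0.05, against 0.112% of all regions. The LSD1i or Combo libraries had a part in the choice of most table regions, so nothing is read from that second count. The 43 start regions differed by -0.19 to 0.12, with 22 below 0.

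The remaining regions of the LSD1i and Combo tables are described here, and no test is read from the libraries that chose them. Those called throughout the libraries outside the listing table were in the tests above, and none of them passed. The Lpin1 region at 12:16583721 had -1.13 and -1.34 in LSD1i and -1.49 and -1.52 in Combo, and -2.66 to -2.01 in the 7 other libraries in which it was called, and no peak was called in 6MP replicate 1. Another 2 regions were called in libraries with the inhibitor only. One is an intron of Fads3 (19:10047049), called in LSD1i replicate 2 and both Combo replicates at 48 to 50 fragments. The other is intergenic, annotated to Scd1 (19:44444598), and was called in all 4 at 20 to 28 fragments. The share of all regions called only with the inhibitor was not counted, so nothing is read from these 2.

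Among the listed closed regions was one downstream of Fads3 (19:10059982-10061206), with a deposited fold of -0.93 for LSD1i. It had 0.31 and -0.13 in LSD1i, 0.22 and 0.33 in Combo and 0.53 to 0.81 in the other 8 libraries, without overlap. Combo against 6MP and CER, libraries outside its choice, gave -0.34 ± 0.13, which did not pass (adjusted p = 0.092 by limma). An intron of Srebf2 (15:82163709) with a deposited fold of -0.99 for LSD1i was called in 8 libraries, at -2.62 to -1.40. The intergenic region at Scd1 had 1.55 to 1.70 in the 4 libraries with the inhibitor and 1.67 to 2.04 in the other 8, which overlap. In an Abca1 intron (4:53149296) the 4 had 0.72 to 1.06 and the other 8 had 0.66 to 1.43, with the lowest value in 6MP replicate 1. Promoters of other transcripts of Lpin1 (12:16589324) and Lss (10:76542624), with deposited folds of -0.63 and -0.56 for LSD1i, had -0.32 to 0.12 and -1.30 to -0.90 with the inhibitor, against -0.01 to 0.57 and -1.14 to -0.31 without it. A 3' UTR at Pmvk (3:89448724), with -0.61 for LSD1i, had 0.28 to 0.78 against 0.46 to 1.15. In Combo against 6MP and CER these regions at Scd1, Abca1, Lpin1, Lss and Pmvk differed by -0.43 to -0.19. None of them passed (adjusted p from 0.056 to 0.42 by limma).

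In an intron of Cpt1a (19:3338272-3339831), listed as closed for LSD1i (-0.39), the lowest libraries were those with cerulenin. CER had 0.39 and 0.24 and Combo 0.49 and 0.26, while the other 8 had 0.57 to 1.05, so the groups did not overlap. The share of all regions separated in this way was not counted, here or at the other table regions. Combo against 6MP and CER, libraries outside its choice, has cerulenin on both sides. It gave -0.22 ± 0.13 (SE), which did not pass (adjusted p = 0.28 by limma). In the deposited Combo table, an Elovl6 intron (3:129611630-129613995) has a fold of 0.78 and an intergenic region at Lpin1 (12:16525277) 0.79. The Elovl6 intron was highest in Combo, at 0.15 and 0.17 against -0.56 to -0.01 in the other 10 libraries, and the Lpin1 region had 0.75 and 1.11 against -0.05 to 0.94. In libraries outside that table, LSD1i against 6MP and CER gave 0.22 ± 0.14 (SE) at the Elovl6 intron and -0.33 ± 0.14 at the Lpin1 region. With CER against LSD1i and 6MP they had -0.11 ± 0.14 and 0.03 ± 0.14, and neither passed in either comparison. An Abca1 exon (4:53085459) with 0.73 in that table was called in 8 libraries, at -3.25 to -1.59.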

How the data were processed

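The submitters' processing notes name mm10, the read trimmer Trimmomatic (0.38), the aligner Bowtie2, SAMtools (1.9), Picard (2.18.26), the peak caller MACS2 (2.1.2) and DiffBind. Their settings and order are not given in the sources used here. For each library the authors deposited called peaks with a whole-number score, a fold ratio of the summit over local background, and the -log10 of p and q. The deposited comparison tables give log2 levels and folds of normalised reads, with scaling not stated, and a p-value and FDR per region, none above 0.05. The table for 6MP was not used here.

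The fragment pileup under a summit was recovered from its fold ratio and Poisson p-value and was a whole number, to a tolerance of 0.001, at 100.0% of summits. Read totals are unknown. The smallest background of a library (2.44 to 4.55 fragments) served as its depth. Summit pileups had medians of 50 to 75 fragments, and counting error limits weak regions. Peaks of all libraries were joined into 73156 regions. limma 3.58.1 in R 4.3.3 (trend, all 12 libraries, 6 group means) was fitted on all regions called in every library of a comparison, with Benjamini-Hochberg adjustment at 0.05. The fit was tested on simulated data. Replicates are biological per the labels, and p-values measure the spread between these libraries. A comparison of 2 libraries with 2 cannot give an exact two-sided permutation p under 0.333.

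Members and gene lists were chosen with earlier results of these data known. Named are all member regions past the test, members of the deposited Day0 and CER tables, the 2 largest folds per role and direction in the other tables, 15 preset promoters, and members without a start peak in all libraries. The comparisons with libraries outside the table that listed a region were added after seeing the data. Alternatives covered scaling, the deposited fold as signal, filters, the replicate block, a block for the suffix of the library name, and leaving out each library.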

Additional observations from a re-analysis of the deposited data

How the results depend on the processing

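Of 1091 values of single regions under the alternatives, 747 kept their direction and their side of the threshold, 333 kept the direction and lost the call, and 11 turned. The counts below are of member regions past the limma threshold. They include table regions chosen by the authors' tests, and nothing is read from them about the members. Calls over all regions moved as well. With the LSD1 inhibitor present, 3381 opened and 5079 closed of 34229. Scaled by depth these were 2579 and 36, and with the deposited fold ratio 575 and 284. In Combo against Vehicle, 2119 opened and 1326 closed of 42679, against 1200 and 35 scaled by depth.
Scaled by depth, the count went from 3 to 1 in LSD1i against Vehicle, from 2 to 0 in CER, from 9 to 3 in Combo, from 22 to 1 with the LSD1 inhibitor present (closed starts from 11 to 0), from 4 to 0 with cerulenin present, from 11 to 3 in Combo against 6MP and CER, from 13 to 1 in LSD1i against 6MP and CER, and from 5 to 0 in CER against LSD1i and 6MP. With the deposited fold ratio as the signal, these counts were 0, 0, 0, 1 (closed starts 0), 0, 0, 0 and 0. Centred by intensity, closed starts were 7. Fitted on the libraries of the comparison only, the count was 6 in LSD1i, 0 in CER and 2 in Combo against LSD1i, which had 0.
With the suffix of the library name as a block, the count was 5 in LSD1i, 4 in CER, 1 in Combo against LSD1i, 17 in Combo against 6MP and CER, and 8 in LSD1i against 6MP and CER. The replicate numbers did not pair the samples, with correlations of same-numbered deviations between -0.34 and 0.25 over 15 pairs of groups. With the replicate block the count was 1 in Combo against LSD1i, 21 with the LSD1 inhibitor present (closed starts 10), and the other counts moved by 1 at most.
Leaving out 1 library gave 0 to 1 in Vehicle against Day0, 1 to 4 in LSD1i, 0 to 5 in CER, 1 to 7 in Combo, 12 to 57 with the LSD1 inhibitor present (closed starts 5 to 37), 1 to 4 with cerulenin present, 1 to 50 in Combo against 6MP and CER, 1 to 48 in LSD1i against 6MP and CER, and 1 to 36 in CER against LSD1i and 6MP. Without 6MP replicate 1 and CER replicate 2 the counts were 0 in CER, 53 with the LSD1 inhibitor present (closed starts 34), 2 with cerulenin present, 39 in Combo against 6MP and CER, and 40 in LSD1i against 6MP and CER.
The sign turned for Combo against 6MP and CER scaled by depth at Pmvk (0.10), Srebf1 (0.17 and 0.12) and Abcg1 (0.063, 0.096 and 0.21). With the deposited fold ratio it turned at Lpin1 in Combo against Vehicle (-0.0098), with the LSD1 inhibitor present (-0.15) and in LSD1i against 6MP and CER (-0.13), at Elovl6 in Combo against 6MP and CER (-0.10), and at Abcg1 in LSD1i against 6MP and CER (0.024). The cause was not tested.
In the deposited tables, an FDR of 0.01 left 0 of 1 region opened in Vehicle against Day0, 1 of 4 opened in LSD1i and 0 of 1 closed in CER. An absolute log2 fold of 1 or more left 0 in Vehicle against Day0, 1 opened and 3 of 69 closed in LSD1i, and 3 of 8 opened in Combo. Regions annotated to members within 2 kb of a RefSeq start were 39 of the 69 closed in LSD1i and 0 of all other listed ones. Promoters that the deposited tables annotate to other transcripts, as at Acss2, Acaca and Acacb, are not among the 39. Weak regions are limited by depth, since the smallest called summits held 10 to 14 fragments.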
